A study of Homo sapiens with 11 samples.

Results

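The genes described here encode the subunits of Mediator. They were the protein-coding genes whose symbol was MED followed by a number, with or without a final L, together with CDK8, CDK19 and CCNC, and 32 of the 23167 identifiers in each count table met that rule. MED16, a tail subunit, was not analysed here. MDA-MB-231 is a human triple-negative breast cancer cell line derived from a pleural effusion. RNA sequencing compared 2 libraries of wild-type cells (WT), which received the transfection reagent without siRNA, with 2 libraries of cells given 11 nM of an siRNA against mH2A1.1 (KD), all collected at day 3. The histone variant mH2A1.1 is a splice isoform of the MACROH2A1 gene, so total mH2A1 holds this isoform and its sister isoform mH2A1.2. Peaks of mH2A1.1 and of total mH2A1 came from 1 ChIP-seq library each, so they have no replicate check. No siRNA treatment is given for these ChIP-seq libraries. The cells are 1 line, and nothing in the labels says that the libraries came from separate cultures.

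Mediator carries signals from transcription factors bound at enhancers to RNA polymerase II at promoters. Its head and middle modules contact the polymerase, the tail receives most activators, MED14 is the scaffold that joins them, and MED27 to MED30 are metazoan subunits that link head and tail. A separable kinase module, built from CDK8 or CDK19 with cyclin C (CCNC), MED12 or MED12L and MED13 or MED13L, binds the core reversibly and limits its contact with the polymerase.

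Library totals ran from 2309549 counts in KD replicate 2 to 9794674 in WT replicate 1. KD replicate 2 held 30 counts on chromosomes 21, 22 and X together, against 367149 to 609961 in the other libraries, so for MED15 (chromosome 22), MED12 and MED14 (chromosome X) KD replicate 1 alone was set against WT. MACROH2A1, the targeted gene, had 385 and 394 CPM (counts scaled to library size) in WT and 274 and 300 CPM in KD. Both KD libraries lay below both WT libraries, with a log2 fold change of −0.44 ± 0.17 (SE) and an adjusted p of 0.20 in edgeR's quasi-likelihood test. Gene counts cannot separate the targeted isoform from mH2A1.2. Vimentin, CD44 and EGFR, which mark this line, summed to 4300 to 6682 CPM per library. The oestrogen and progesterone receptor genes had 0 counts in all 4 libraries. ERBB2, another receptor gene listed as low in triple-negative cells, had 79.95 to 127.6 CPM per library. The luminal epithelial markers GATA3, FOXA1, EPCAM and CDH1 summed to 40.6 to 48.2 CPM, and the measured leukocyte markers to at most 3.26 CPM.

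The sequences at the starts of 4 members are shown, with or without an mH2A1.1 peak. CCNC and MED23 had lower levels in both KD libraries, and MED20 and MED29 had higher levels. The start of CCNC lay in a 3000 bp mH2A1.1 peak, that of MED23 in none, and those of MED20 and MED29 in broad peaks. Each sequence is the RefSeq window of 300 bases around the gene start in GRCh38.p14, read 5′ to 3′, with capitals for matches on either strand to 6 short motifs of ETS factors, NRF1, YY1, NFY, SP factors and the TATA box, whose letters are given after the sequences. The matches in these windows do not overlap each other.
CCNC promoter, chr6:99568765-99569064, minus strand: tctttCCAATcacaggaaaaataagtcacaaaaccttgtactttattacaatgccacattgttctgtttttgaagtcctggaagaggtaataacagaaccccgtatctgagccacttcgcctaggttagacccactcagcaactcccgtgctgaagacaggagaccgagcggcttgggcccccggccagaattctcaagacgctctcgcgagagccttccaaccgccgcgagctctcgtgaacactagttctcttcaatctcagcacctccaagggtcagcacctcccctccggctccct
MED23 promoter, chr6:131628264-131628563, minus strand: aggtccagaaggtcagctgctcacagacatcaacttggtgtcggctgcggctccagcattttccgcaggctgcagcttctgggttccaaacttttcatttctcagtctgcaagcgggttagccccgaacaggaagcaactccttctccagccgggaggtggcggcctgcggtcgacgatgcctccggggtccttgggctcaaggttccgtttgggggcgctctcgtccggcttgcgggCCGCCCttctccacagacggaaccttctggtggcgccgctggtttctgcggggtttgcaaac
MED20 promoter, chr6:41920894-41921193, minus strand: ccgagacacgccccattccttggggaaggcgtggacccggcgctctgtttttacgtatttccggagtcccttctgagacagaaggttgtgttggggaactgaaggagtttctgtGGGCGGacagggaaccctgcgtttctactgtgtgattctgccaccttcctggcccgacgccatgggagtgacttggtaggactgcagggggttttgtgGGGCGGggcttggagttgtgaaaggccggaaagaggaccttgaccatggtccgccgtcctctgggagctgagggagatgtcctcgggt
MED29 promoter, chr19:39391128-39391427, plus strand: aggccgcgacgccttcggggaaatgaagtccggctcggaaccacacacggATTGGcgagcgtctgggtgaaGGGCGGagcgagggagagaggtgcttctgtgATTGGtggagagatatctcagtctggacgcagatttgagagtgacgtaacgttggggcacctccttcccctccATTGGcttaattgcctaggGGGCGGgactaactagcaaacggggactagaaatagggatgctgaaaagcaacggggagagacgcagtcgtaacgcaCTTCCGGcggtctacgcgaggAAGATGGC

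The CCNC window held 1 match to the NFY motif, MED23 held 1 match to the SP motif on the opposite strand, and MED20 held 2 matches to the SP motif. The MED29 window held matches to 4 of the 6 motifs. RefSeq windows were matched for 24 members, while MED6, MED8, MED13, MED14, MED21, MED22, MED28 and MED30 had no entry. The ETS motif CCGGAAG was present in 7 of the 24 windows (MED7, MED11, MED15, MED17, MED18, MED29 and MED31) and in 10.3% of all 35116 promoter windows. The YY1 motif AAGATGGC was present in 4 members (MED1, MED18, MED25 and MED29) and in 2.89% of all windows. The NFY motif CCAAT was found in 9 of the 24 members and in 34.6% of all windows. The SP motif GGGCGG was found in 14 members and in 44.95% of all windows. The NRF1 motif GCATGCGC was found in MED18 and in 3.05% of all windows, and the TATA box motif TATAAA in MED7 and in 11.5% of all windows. The GC content of the members' windows had a median of 58.5%, against 58.7% for all windows. For 20 of the 24 members the RefSeq start lay within 500 bp of the GENCODE gene start. It lay farther away for MED26 (858 bp), MED24 (6807 bp), MED15 (11697 bp) and MED7 (16154 bp). The motif matches of these genes therefore do not describe the starts used for the peaks.

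To compare levels between genes, CPM was divided by the length of the merged exons in kilobases (RPKM). In WT cells 31 members had counts, with a median of 7.89 RPKM and a range from 0.242 to 29.8 RPKM. The scaffold gene MED14 had the highest level, at 30.4 and 29.3 RPKM in the WT libraries. MED1, the middle subunit that nuclear receptors contact, followed at 24.5 and 25.5 RPKM, and the head subunit MED20 at 24.2 and 22.1 RPKM. MED13 came next at 21.998 and 20.3 RPKM. The libraries of these neighbouring genes did not overlap, but the nearest values of MED1 and MED20, and of MED20 and MED13, lay closer together than the libraries of any 1 of these genes.

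At the lower end, the head subunit MED17 had 1.03 RPKM in both WT libraries, MED26, a middle subunit that recruits elongation factors, had 1.92 and 2.02 RPKM, and MED12L had 0.227 and 0.257 RPKM. The annotated exons of MED17 and MED13L merge to 16610 and 32862 bases, which lowers a level per length. Within the kinase module, each gene of a paralogue pair had its own level. MED13 lay above MED13L (7.56 and 6.81 RPKM), MED12 (4.96 and 5.18 RPKM) above MED12L, and CDK19 (4.97 and 4.59 RPKM) above CDK8 (3.62 and 3.94 RPKM). In each of these pairs the WT values of the paralogues did not overlap, and the order was the same per gene length. MED24 (10.9 and 11.5 RPKM) was the highest of the tail genes and MED25 (4.52 and 4.38 RPKM) the lowest, while MED29 (14.6 and 15.1 RPKM) and MED28 (6.002 and 6.26 RPKM) marked the ends of the MED27 to MED30 group. These orders rest on the merged exon length: per gene length from start to end, MED29 was the highest member and MED14 ranked at 9, MED23 was the lowest tail gene, and MED27 the lowest of its group.

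MED22, a head subunit, had 0 counts in all 4 libraries. The 13 other counted genes within 100 kb of it, 9 of them protein-coding, summed to 1 count over the 4 libraries, so its 0 is a property of that stretch of the tables and was not read as a level.

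**Figure D1:**
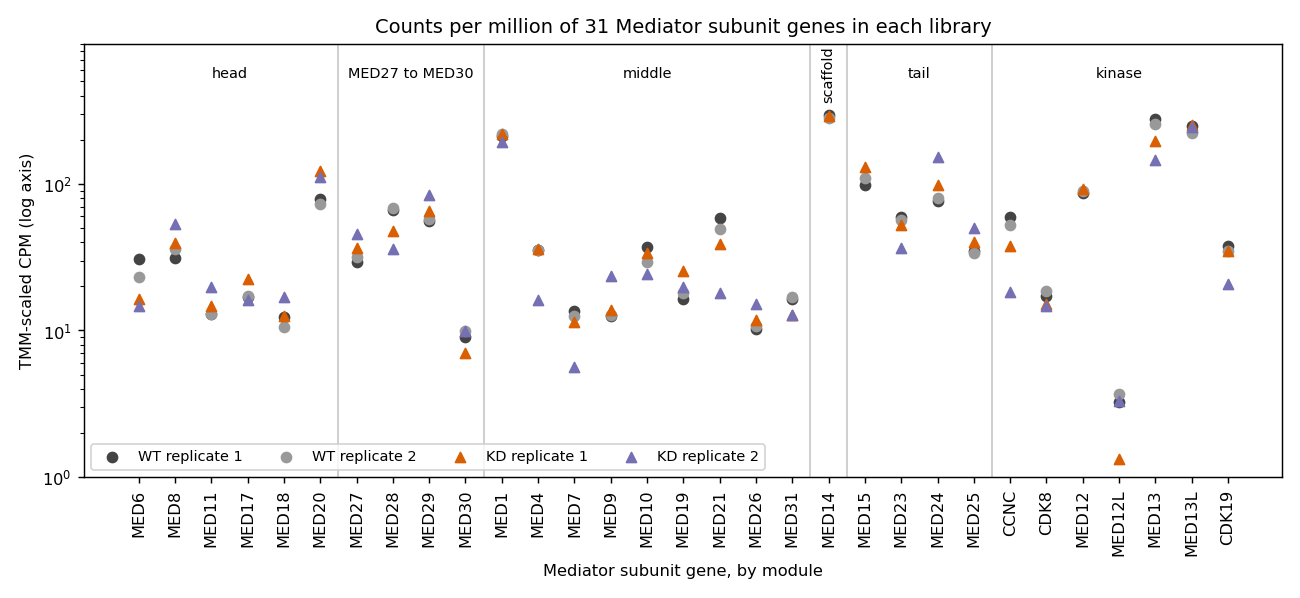
TMM-scaled CPM (log axis) of the 31 Mediator subunit genes with counts, by module, with 1 symbol per library (circles WT, triangles KD). CCNC, MED21, MED6, MED28 and MED13 had both KD triangles below both WT circles, and MED20 and MED24 had both above; MED12, MED14 and MED15 have no symbol for KD replicate 2.

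After mH2A1.1 depletion, no Mediator gene passed the main test, which asked for a fold change over 1.5 at an adjusted p under 0.1. Of the 28 members tested in all 4 libraries, 15 had a negative and 13 a positive log2 fold change, with a median of −0.12 against 0.01 over all 10963 genes tested. The values ran from −0.94 for CCNC to 0.68 for MED24, which is a wide spread around a median near 0. The quasi-likelihood test of edgeR, adjusted by the Benjamini-Hochberg method, called 0 of the 10963 genes (0%), with a lowest adjusted p of 0.176, and 2540 genes had an unadjusted p under 0.05. Leaving out KD replicate 1 gave 4744 called genes, 13 of them members, and leaving out KD replicate 2 gave 909, of which 4 were members. Without WT replicate 1 the count was 2 genes and without WT replicate 2 it was 17 genes, with 0 members in either. Leaving out a library changed which genes were tested, so those counts are not shares of the 10963. In KD, 5 members (CCNC, MED21, MED6, MED28 and MED13) were lower at an unadjusted p under 0.05 and a fold change over 1.5, beside 9.37% of all genes tested. Another 2 members (MED20 and MED24) were higher by the same rule, beside 9.45% of all genes.

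Library values lay apart for many members, as for many genes. Both KD libraries lay below both WT libraries for 10 members, against 32.4% of all genes tested, and above them for 11 members, against 32.5% of all genes. DESeq2, run as an alternative, gave an adjusted p to 7642 genes, 19 of them members. It called 2 members lower, CCNC and MED13, beside 5.86% of those genes, and 0 members higher, beside 5.59%. When DESeq2 was run on all genes, CCNC lost its call, with an adjusted p of 0.128, and MED13 was still called. At an unadjusted p under 0.05 the edgeR fit held 7 of the 28 members, the same 7 genes named above, beside 2540 of the 10963 genes tested.

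The kinase module had the lowest median of the modules, at −0.50 over its 6 genes tested, and 5 of the 6 had a negative log2 fold change. These 6 genes also had the lowest median exon GC content of the modules, at 41.8%, against 47.1% over all genes tested. Fold changes are set against exon GC content below. CCNC (ENSG00000112237, chr6:99542387-99568825 in hg38), the cyclin that activates CDK8 and CDK19, had 59.2 and 52.6 CPM in WT and 37.4 and 18.4 CPM in KD. Both KD values lay below WT, and KD replicate 2 was the lower of the pair. Its log2 fold change was −0.94 ± 0.31 (SE), with an adjusted p of 0.194 in edgeR and 0.068 in DESeq2. MED13 (ENSG00000108510, chr17:61942605-62065278), which tethers the kinase module to the core, had 279 and 258 CPM in WT and 196 and 145 CPM in KD. The groups again did not overlap, and the change was −0.65 ± 0.21, with an adjusted p of 0.194 in edgeR and 0.086 in DESeq2.

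MED13L, the paralogue of MED13, had 249 and 224 CPM in WT and 251 and 243 CPM in KD. These values overlapped, with a log2 fold change of 0.06 ± 0.17 in edgeR. The difference between the changes of the paralogues was not tested. The kinase CDK8 had 17.1 and 18.7 CPM in WT and 15.1 and 14.6 CPM in KD, and its paralogue CDK19 had 38.0 and 35.1 CPM in WT and 34.6 and 20.8 CPM in KD. Both kinase genes had KD values below WT, with changes of −0.26 ± 0.22 for CDK8 and −0.35 ± 0.26 for CDK19 and adjusted p-values of 0.456 and 0.407 in edgeR. For CDK19 most of the distance came from KD replicate 2. MED12L rested on few reads, with 31 and 28 counts in WT and 7 and 7 in KD, and its change of −0.82 ± 0.47 had an adjusted p of 0.301 in edgeR. Scaled to library size, KD replicate 2 (3.31 CPM) lay between the WT libraries (3.26 and 3.68 CPM) and KD replicate 1 (1.32 CPM) below them.

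In the head module 5 of the 6 genes tested had a positive value, and the module median was 0.35. MED20 (ENSG00000124641, chr6:41905354-41921139) had 79.4 and 72.6 CPM in WT and 122 and 111 CPM in KD. Both KD libraries lay well above WT and close to each other, and the log2 fold change of 0.62 ± 0.18 had an adjusted p of 0.194 in edgeR and 0.114 in DESeq2. Of the exon bases of MED20, 24.9% also lie in ENSG00000288721, a protein-coding gene on the same strand that was not counted separately. The counts of MED20 may therefore include reads of that gene. MED6 (ENSG00000133997, chr14:70581257-70600690), a conserved head subunit, was the exception in this module, with 30.5 and 23.1 CPM in WT and 16.4 and 14.6 CPM in KD. Its KD values lay below both WT values, which themselves differed, and the change was −0.77 ± 0.24 with an adjusted p of 0.194 in edgeR. MED17, which contacts the polymerase, had 17.0 and 17.1 CPM in WT and 22.5 and 16.1 CPM in KD, so that the KD libraries lay on either side of WT.

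Among MED27 to MED30, MED28 (ENSG00000118579, chr4:17614641-17634105) had 65.9 and 68.6 CPM in WT and 48.0 and 35.9 CPM in KD. KD lay below WT in both libraries, and the log2 fold change was −0.66 ± 0.21 with an adjusted p of 0.194 in edgeR. Of its exon bases, 32.1% also lie in FAM184B on the other strand, so its counts are uncertain as far as counting could not separate the strands. MED29 had 56.2 and 57.9 CPM in WT and 65.0 and 84.1 CPM in KD, higher in both, with a change of 0.38 ± 0.20 and an adjusted p of 0.278 in edgeR.

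In the middle module 6 of the 9 genes were negative, with a median of −0.18. MED21 (ENSG00000152944, chr12:27022546-27066343), a small subunit that pairs with MED7 at the hinge of the module, had 58.7 and 49.6 CPM in WT and 38.9 and 18.0 CPM in KD. Its KD values lay below WT, and the log2 fold change was −0.86 ± 0.33, with an adjusted p of 0.2004 in edgeR and 0.101 in DESeq2. MED7 had 13.6 and 12.6 CPM in WT and 11.3 and 5.67 CPM in KD, with a change of −0.51 ± 0.32. MED7 lay below WT in both KD libraries, by little in KD replicate 1, and rested on 12 reads in KD replicate 2.

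MED1 had 211 and 220 CPM in WT and 219 and 192 CPM in KD, which overlapped, with a log2 fold change of −0.07 ± 0.18. MED26 had 10.2 and 10.8 CPM in WT and 11.7 and 15.1 CPM in KD, with a change of 0.32 ± 0.25. It shares 27.2% of its exon bases with ENSG00000141979 on the same strand, which was not counted separately. MED31 shares 58.4% of its exon bases with TXNDC17 on the other strand, and its values are uncertain to that extent.

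In the tail, MED24 (ENSG00000008838, chr17:40019097-40061215), a subunit of the nuclear receptor arm, had 76.2 and 80.3 CPM in WT and 99.0 and 154 CPM in KD. Both KD libraries were higher, KD replicate 2 by far the more, and the log2 fold change of 0.68 ± 0.24 had an adjusted p of 0.194 in edgeR and 0.117 in DESeq2. MED25, which binds viral and cellular activators, had 34.7 and 33.7 CPM in WT and 40.1 and 50.1 CPM in KD, with a change of 0.38 ± 0.20. MED23, a tail subunit that relays growth factor signals, had 59.9 and 56.9 CPM in WT and 52.1 and 36.4 CPM in KD. Its KD values were lower in both libraries, with a change of −0.38 ± 0.22 that did not pass the test in edgeR.

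For the genes that KD replicate 2 did not cover, KD replicate 1 was compared with the WT pair, so the KD group has 1 library and the spread comes from the WT libraries. MED14 had 294 and 283 CPM in WT and 289 CPM in KD, between the WT values. MED12 had 86.0 and 89.9 CPM in WT and 92.9 CPM in KD, a log2 fold change of 0.08 ± 0.12. MED15, which activators such as the SREBP proteins contact, had 99.0 and 110 CPM in WT and 130 CPM in KD. Its change of 0.32 ± 0.11 stayed under the fold threshold and was 0.15 ± 0.09 with GC content and exon length offsets. In the same fit over all members, MED6 and MED12L were called lower, beside 5.36% of the 12135 genes tested, and MED20 was called higher, beside 2.60%. MED20 had a log2 fold change of 0.68 ± 0.12 with an adjusted p of 2.8e-07, MED6 one of −0.72 ± 0.20 with an adjusted p of 0.0027, and MED12L one of −1.37 ± 0.58 with an adjusted p of 0.073, each by edgeR. DESeq2 in the same comparison gave adjusted p-values of 0.0043 for MED20 and 0.216 for MED6, so the call of MED6 was lost, and none for MED12L. With GC content and exon length offsets in this comparison MED20 was still called, at 0.62 with an adjusted p of 2.7e-09, whereas MED6 (−0.45, adjusted p of 0.059) fell short of the fold threshold and MED12L (−1.30, adjusted p of 0.102) of the adjusted p in edgeR.

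The KD libraries differed in how far they lay from WT. KD replicate 2 was farther from the WT mean than KD replicate 1 for 22 of the 28 members, the exceptions being MED12L, MED13L, MED17, MED19, MED20 and MED30. On the scale of log2 (CPM + 1), the difference of CCNC from the WT mean was −0.57 in KD replicate 1 and −1.55 in KD replicate 2. For MED4 it was 0.02 in the former and −1.09 in the latter. MED20, in contrast, was at 0.68 in KD replicate 1 and 0.54 in KD replicate 2.

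**Figure D2:**
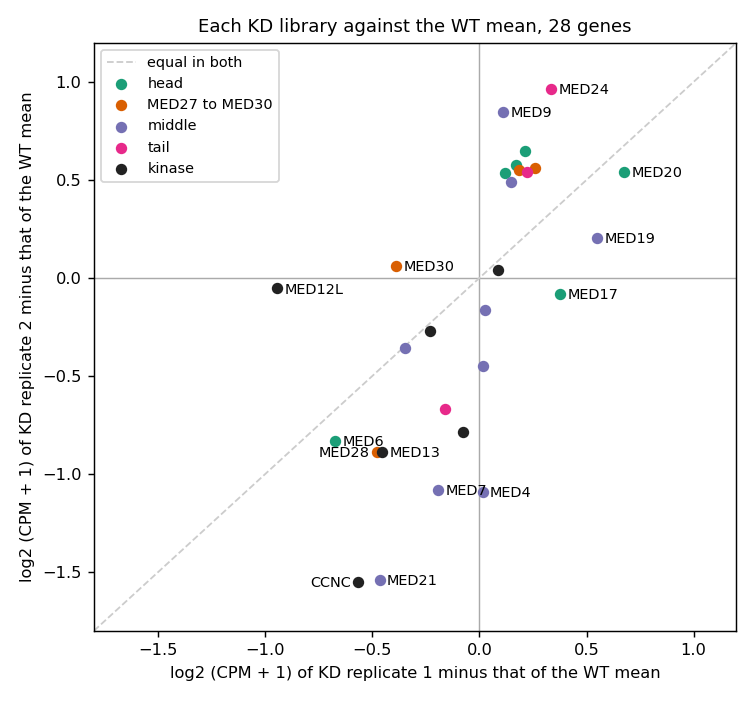
Distance of each KD library from the WT mean in log2 (CPM + 1) for 28 Mediator subunit genes, coloured by module, with KD replicate 1 on the horizontal and KD replicate 2 on the vertical axis; the dashed line marks equal distance. CCNC and MED21 lie lowest in KD replicate 2, and MED20 is one of the few genes at similar height in both.

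The members' fold changes moved with the GC content of their exons, as those of other genes did. All 7 members under 40% GC were negative, with a median of −0.65, and the median of the 1955 genes in that band was −0.48. All 11 members above 45% GC were positive. Over all genes the band medians rose to 0.44 above 55% GC, where MED24, MED25 and MED26 lie. The bands under 40% and above 55% had medians of −0.25 and 0.17 in KD replicate 1 and of −0.79 and 0.67 in KD replicate 2, each relative to the WT mean in log2 (CPM + 1). Across the 28 members Pearson's r between exon GC content and log2 fold change was 0.77, and across 10943 genes it was 0.63. These are descriptions across genes that share the same 4 libraries and are not independent replicates. Whether GC content or the depletion set these values was not tested.

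**Figure D3:**
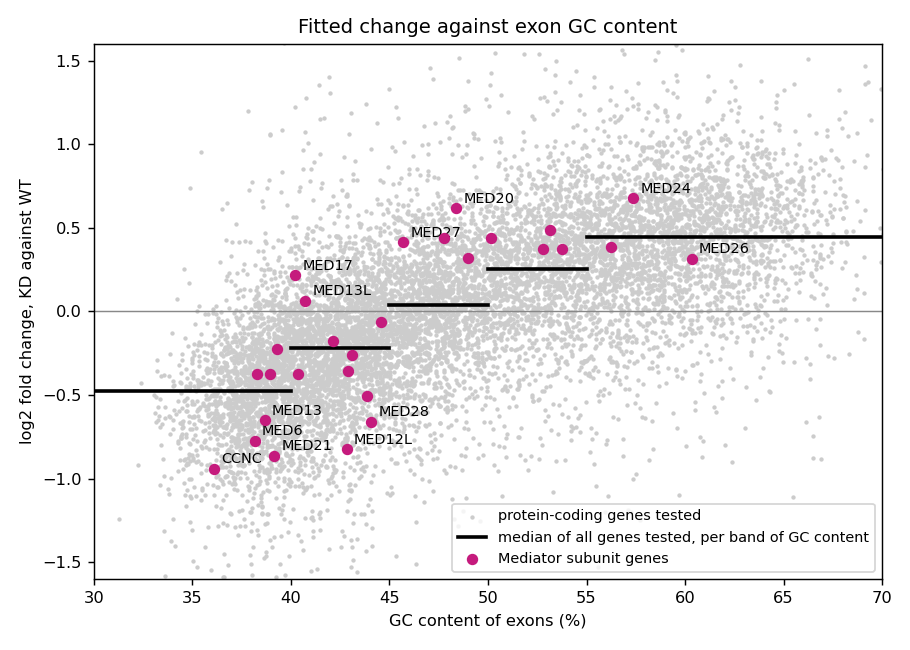
Log2 fold change of KD against WT on the vertical axis against the GC content of the exons in percent, for 28 Mediator subunit genes (large points) and the other protein-coding genes tested (small points; those outside the axes are not drawn), with the median of all genes tested in each GC band as a bar. The members follow the bars, with MED20, MED17 and MED27 above them and CCNC, MED28 and MED12L below.

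The counts were refitted with offsets for each library that followed exon GC content and exon length, so that genes were compared with others of similar composition. In that fit edgeR called 3.17% of the 10963 genes lower and 2.19% higher, and 0 of the 28 members in either direction. It gave an unadjusted p under 0.05 to 8 of the 28 members, beside 2878 of the 10963 genes. The median of the members moved from −0.12 to 0.06, and 24 of the 28 values came closer to 0. MED20 kept most of its value, at 0.55 ± 0.11 with an adjusted p of 0.044 in edgeR, just under the fold threshold. MED28 was at −0.51 ± 0.12 with an adjusted p of 0.063 in edgeR, under the same threshold.

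CCNC moved to −0.35 ± 0.14, MED13 to −0.21 ± 0.10, MED6 to −0.33 ± 0.19 and MED21 to −0.43 ± 0.17 in log2 fold change. MED24 moved to 0.28 ± 0.10. Each of these 5 values moved farther than those of MED20 and MED28 did. MED17 went the other way, from 0.22 to 0.53 ± 0.16 with an adjusted p of 0.096 in edgeR, and MED13L from 0.06 to 0.31 ± 0.12. The sign turned for MED1, MED4, MED10, MED23, MED26 and MED30. Of the kinase genes, 5 of 6 stayed negative, with a median of −0.16.

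**Figure D4:**
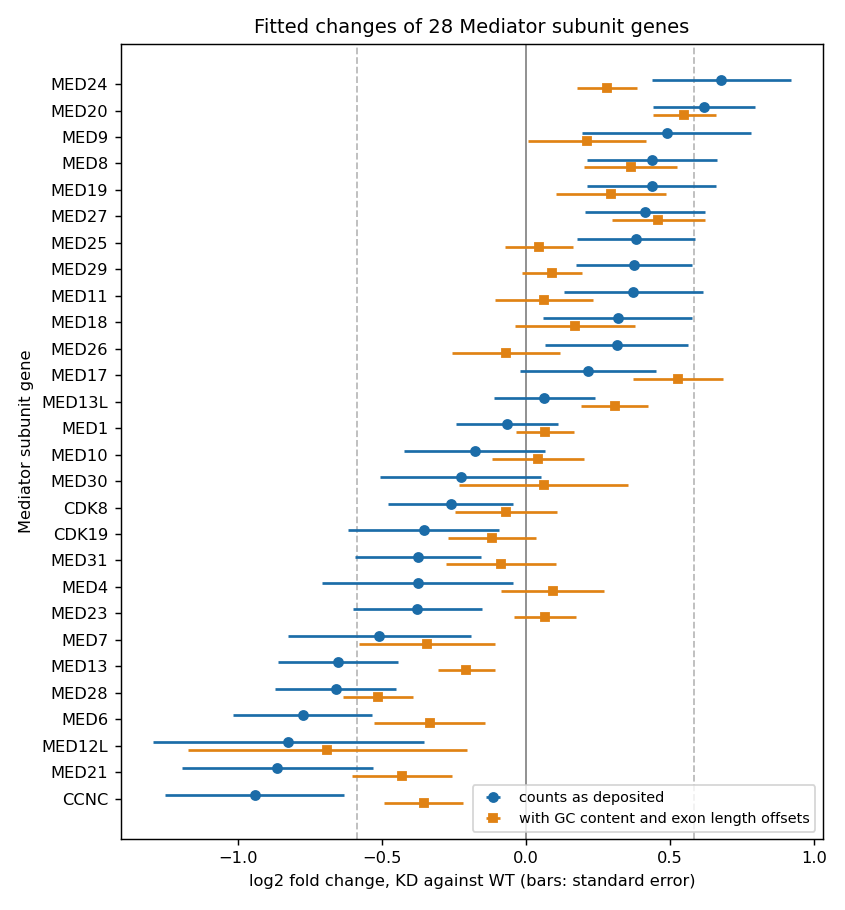
Log2 fold change of KD against WT with its standard error for 28 Mediator subunit genes, from counts as deposited (circles) and with GC content and exon length offsets (squares); dashed lines mark a fold change of 1.5. Most squares lie nearer 0 than the circles, while MED20 and MED28 moved little and MED17 moved away from 0.

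Peaks of mH2A1.1 marked the starts of many Mediator genes. Within 500 bp of the gene start, 18 of 32 members (56.2%, 95% exact binomial interval 37.7 to 73.6%) had an mH2A1.1 peak. Among the 31 members with counts the share was 58.1%. Of the 11531 protein-coding genes tested in the fit without KD replicate 2, which is the set used for peak shares, 46.1% had one. A peak was termed common when it overlapped a total mH2A1 peak by at least 1 bp anywhere along its width. One without such overlap counted as an mH2A1.1 peak only, even where a total mH2A1 peak lay nearby, as at MED18. MED9, with a common peak, had no total mH2A1 peak within 500 bp of its start. The starts of 7 members, MED9, MED11, MED13L, MED20, MED24, MED25 and MED29, lay at a common peak (21.9%, interval 9.28 to 39.97%), against 25.9% of the genes tested. The intervals cover counting error only and include the shares of the other genes.

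The peaks differed in width from one member to the next. They come in steps of 3000 bp, and 8 of the 18 at members' starts, among them those of CCNC, CDK19, MED12L, MED13L and MED21, were 3000 bp wide. Of the 5318 protein-coding genes tested with a peak at the start, 29.2% had one of 3000 bp. Peaks of at least 24000 bp lay at 33.3% of the 18 members' starts and at 34.4% of the starts of those genes. MED11 lay wholly inside an mH2A1.1 peak of 102000 bp (chr17:4704001-4806000) and inside a total mH2A1 peak of 81000 bp. MED20 lay wholly inside a peak of 87000 bp (chr6:41892001-41979000), and MED29 wholly inside one of 30000 bp (chr19:39390001-39420000). The peak at the start of MED24 spanned 36000 bp (chr17:40050001-40086000), and mH2A1.1 peaks covered 57.3% of the gene. The peak of CCNC (chr6:99567001-99570000) ran from 1175 bp before to 1824 bp after the start and included the whole promoter window shown above.

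Of the 14 members with no mH2A1.1 peak at the start, MED28 had one 1360 bp away and MED13 one 7723 bp away, while the nearest to MED6 was 64311 bp away. MED27 had a total mH2A1 peak of 177000 bp over its start with no mH2A1.1 peak there. CDK8, MED4, MED6, MED7, MED12, MED13, MED14, MED22, MED23, MED30 and MED31 had no mH2A1.1 peak anywhere in the gene. They make up 34.4% of the members, with MED22, which had no counts, included, beside 28.3% of the 11531 protein-coding genes tested.

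**Figure D5:**
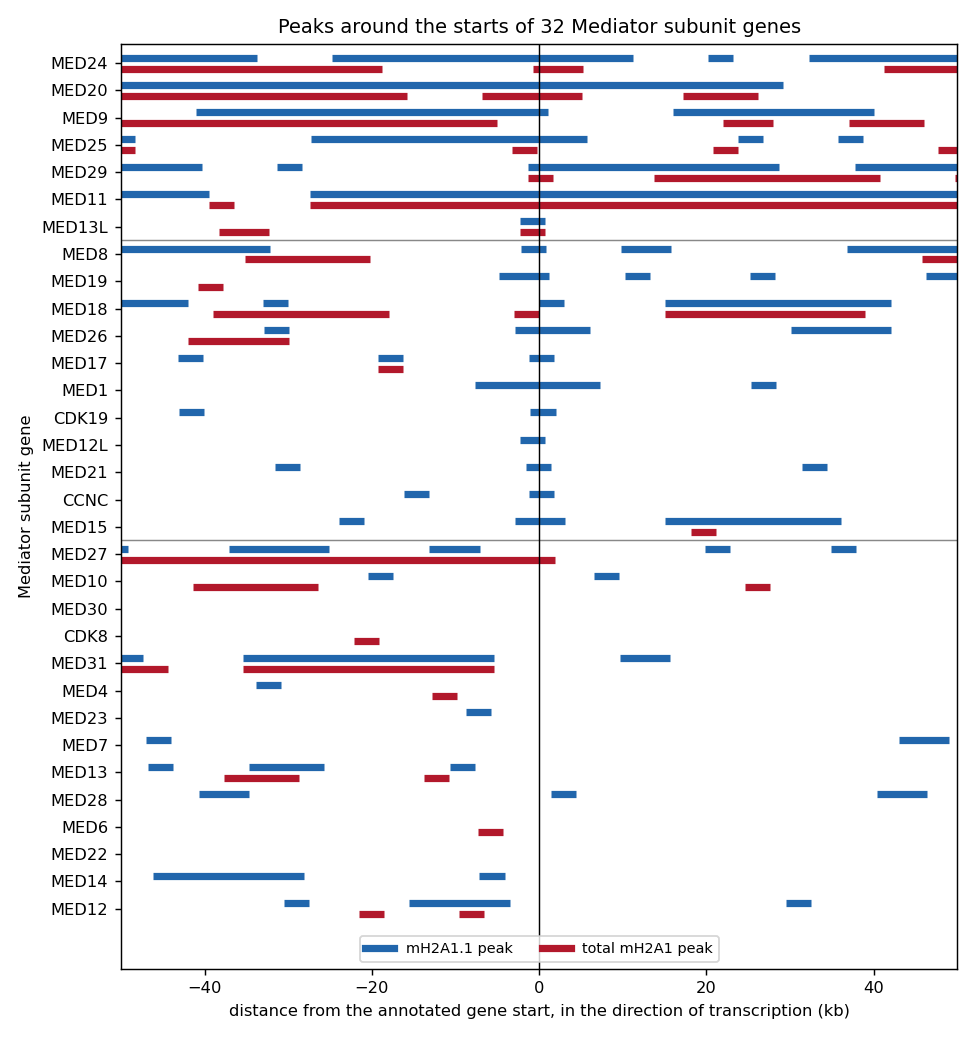
Peaks of mH2A1.1 (upper bars) and total mH2A1 (lower bars) within 50 kb of the starts of 32 Mediator subunit genes, with distance in kb in the direction of transcription; horizontal lines separate members with a common peak at the start (top), an mH2A1.1 peak only (middle) and no mH2A1.1 peak (bottom). The 7 genes of the top block include the broad domains over MED11, MED20, MED24 and MED29.

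The members were then set side by side by the peak at their start. All 7 with a common peak had positive log2 fold changes, from 0.06 for MED13L to 0.68 for MED24, with a median of 0.38. Of the 11 tested members with no mH2A1.1 peak, 10 were negative and only MED27 was positive, with a median of −0.37. The 10 with an mH2A1.1 peak only were 5 negative and 5 positive. Among all protein-coding genes tested in 4 libraries, those with a common peak had a median of 0.28, and 2016 of 2773 were positive. Those with no peak had a median of −0.12, and 3275 of 5566 were negative. The members thus lay in the same order as other genes. No member passed the main test in any of these groups.

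Exon GC content moved with the same classes, with a median of 53.1% in the members with a common peak and 40.3% in those with no peak. With the GC content and exon length offsets, the 7 members with a common peak were still positive, from 0.05 for MED25 to 0.55 for MED20, whereas the 11 with no peak were 6 negative and 5 positive. In that fit the medians over all protein-coding genes were 0.01 with a common peak and 0.01 with no peak. Of these genes, 1429 of 2773 with a common peak were positive and 2710 of 5566 with no peak were negative. MED13L turned to −0.01 without WT replicate 2 in the counts as deposited. The part of GC content in the differences between classes was not tested beyond these values.

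Other genes of the transcription machinery gave a frame for the Mediator values. Of 26 general transcription factor genes tested in 4 libraries (33 in the list), 16 were negative and 10 positive in log2 fold change, with a median of −0.08, and DESeq2 called 2 lower and 0 higher. Of 18 pausing and elongation factor genes tested, 7 were negative and 11 positive, with a median of 0.07, and DESeq2 called 2 lower and 2 higher. Of 20 genes for activators known to bind Mediator, 12 were negative and 8 positive, with a median of −0.06, and DESeq2 called 1 lower and 1 higher. DESeq2 gave an adjusted p to 23, 18 and 17 genes of these lists respectively. Over all 7642 genes with one it called 5.86% lower and 5.59% higher. The edgeR test called 0 genes in each of these lists, with 5, 4 and 2 genes respectively at an unadjusted p under 0.05 and a fold change over 1.5. By that rule 9.37% of all genes tested were lower and 9.45% higher.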

How the data were processed

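Read counts per gene in 4 RNA-seq libraries and peak intervals of 2 ChIP-seq libraries of MDA-MB-231 cells were used; the input and promoter capture samples were not analysed here. The authors mapped reads to hg38 with STAR (2.5.1 per the labels), removed low-quality reads and duplicates and deposited whole-number counts from htseq-count with default parameters; the library kit was a stranded total RNA kit. The authors called peaks with normR, and the deposited peak coordinates are in hg38. Removing duplicates limits the counts of highly expressed genes.

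Here, counts were fitted with edgeR (4.0.16; TMM, filterByExpr, quasi-likelihood, Benjamini-Hochberg over all genes tested), with 2 WT against 2 KD libraries for genes off chromosomes 21, 22 and X and without KD replicate 2 for genes on them. Genes were called at a fold change over 1.5 with an adjusted p under 0.1. Log2 fold changes carry standard errors. P-values measure only the spread between these libraries, which may be technical. DESeq2 (1.42.0), other scalings, no filter, GC content and exon length offsets (lowess span 0.3) and leaving out each library were alternatives; DESeq2 on all genes was added after seeing the data. The scripts were tested on simulated data. Gene starts, exon lengths and GC content came from GENCODE 44 in hg38; promoter windows came from RefSeq, GRCh38.p14. The 106 identifiers without a match held at most 0.176% of counts.

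Members described with their values were those called by either tool and those at an unadjusted p under 0.05 with a fold change over 1.5. The kinase module, the highest and lowest by level of each module, and the members on chromosomes 22 and X were also described. After their values were seen, MED7 and MED23 were added to these, and MED4, MED19 and MED27 were named. The members and lists were chosen with earlier results of these data known.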

Additional observations from a re-analysis of the deposited data

How the results depend on the processing

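The number of genes called moved from 0 to 875 with DESeq2 (2 members, CCNC and MED13), 950 with DESeq2 on all genes (4 members, MED6, MED13 and MED28 lower and MED20 higher, with CCNC no longer called), 2139 with no filter on low counts (7 members), and 588 with GC content and exon length offsets (0 members). It stayed at 0 with DESeq2 size factors in edgeR and with all genes in 1 fit. Leaving out 1 library gave 2 to 4744 genes and 0 to 13 members, the most without KD replicate 1, where MED20 was not among them. WT and KD share replicate numbers that the labels tie to no batch, and same-numbered libraries had a correlation of deviations of 0.252 over 10963 genes, with only 2 pairs. With the replicate block 2208 of the 10963 genes and 7 of the 28 members (CCNC, MED6, MED13, MED20, MED21, MED24 and MED28) were called. With the replicate block and the offsets these were 867 genes and 0 members. Pairing cannot be established from a number alone. With no filter or with a library left out, other sets of genes were tested, so those counts are not shares of the 10963. The cause of these shifts was not tested.

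MED1 turned from −0.065 to 0.067 and MED26 from 0.32 to −0.069 with the offsets, and to 0.069 and −0.0755 with the replicate block added. In KD replicate 1, MED12 turned from 0.08 to −0.048 with the offsets and MED14 from 0.01 to −0.0026 with no filter. Leaving out 1 library gave −0.175 to 0.030 for MED1 (positive without KD replicate 2), −0.013 to 0.14 for MED13L (negative without WT replicate 2), −0.096 to 0.40 for MED17 (negative without KD replicate 1), and −0.024 to 0.0305 for MED14 (negative without WT replicate 2). Asking for peaks of at least 6000 bp left 10 members with an mH2A1.1 peak and 4 with a total mH2A1 peak at the start. Dividing by gene length instead of exon length moved the median level to 1.55. KD replicate 2 limits the low members, with 7 to 50 counts for 16 of them.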
